A study of Mus musculus with 90 samples.

Results

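The 10 genes described here encode acute phase proteins, plasma proteins that the liver secretes and whose amounts change in inflammation: 4 serum amyloid A proteins (Saa1, Saa2, Saa3, Saa4), lipocalin 2 (Lcn2), 2 orosomucoids (Orm1, Orm2), haptoglobin (Hp), hemopexin (Hpx) and serum amyloid P component (Apcs). They were chosen by symbol, after the Ensembl gene IDs of the deposited tables were mapped to symbols, and all 10 were found among 27654 genes. The study asked what caloric restriction, the glucocorticoid receptor (GR) of hepatocytes and added corticosterone, the main glucocorticoid of the mouse, do to gene expression in the liver. It measured poly(A) RNA of 90 whole livers, 1 library per mouse, all of strain C57BL/6J and fed chow. A time series covered 6 times of day at intervals of 4 hours, from ZT0, the start of the light phase at 6 a.m., over ZT12, the start of the dark phase, to ZT20. On caloric restriction it held 18 livers of genotype GRfl/fl (called WT here) and 18 of genotype GRfl/fl x Alb-Cre (GRLKO), 3 of each per time. On night restricted feeding (the control diet) it held 22 WT and 20 GRLKO livers, 3 or 4 of each per time. Caloric restriction meant night restricted feeding with calories lowered stepwise to an end point of 40% fewer. A separate diet experiment, sampled at ZT12 in mice labelled WT, set 3 livers of the restricted diet against 3 control livers that are titled AL and labelled as night restricted feeding. A corticosterone experiment, also at ZT12 and in mice labelled WT, set 3 livers labelled as corticosterone supplementation against 3 control livers labelled as night restricted feeding, and the labels do not say whether those mice received a vehicle. Alb-Cre expresses the recombinase from the albumin promoter, so GR is deleted in hepatocytes while other cells of the liver keep it, and no group with Alb-Cre alone was sequenced. The labels give no ages.

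Acute phase genes are switched on in hepatocytes when cytokines of activated macrophages, above all interleukins, act through STAT, C/EBP and NF-kB transcription factors. Glucocorticoids are known to act together with these cytokines on several of the genes, by way of the receptor encoded by Nr3c1. The secreted proteins bind lipids, iron carriers of bacteria, hemoglobin, heme and cell debris in the blood, and serum amyloid A and serum amyloid P component are the classic strong reactants of the mouse.

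Levels are given as CPM, counts relative to the total of the library after scaling within each experiment. Total estimated counts per library were 13739631 to 16077943 in the corticosterone experiment, 36442195 to 39492146 in the diet experiment, 14235473 to 20788575 in the time series on caloric restriction and 10057544 to 17089004 on the control diet. The tissue label is liver, and all 7 hepatocyte markers were detected in 90 of 90 libraries, with albumin (Alb) at 47154 to 140706 CPM. The targeted gene Nr3c1 followed the genotype labels in every library. On caloric restriction it was at 70.1 to 113 CPM with a median of 93.9 in WT and at 21.4 to 32.1 CPM with a median of 24.9 in GRLKO livers. On the control diet it was at 73.0 to 118 CPM with a median of 87.2 in WT and at 16.2 to 29.0 CPM with a median of 21.5 in GRLKO livers. No GRLKO library reached any WT library of either diet. Averaged over the 6 times, the log2 difference of GRLKO against WT was -1.84 on caloric restriction (edgeR adjusted p = 1.01e-24) and -1.96 on the control diet (edgeR adjusted p = 5.13e-26). Because whole livers were sequenced, fewer cells of a type and less RNA per cell cannot be told apart in any result below.

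Some libraries stood apart in several of these genes, a WT liver on caloric restriction by the widest margin. Replicate 2 of the WT livers at ZT8 on caloric restriction had Saa1 at 244 CPM, against 4.96 and 9.70 in its group, and Lcn2 at 174 CPM, against 4.79 and 2.33. The same liver was the highest of the 18 WT livers on that diet in Saa3 (4.96 CPM, next to 4.95 in the second highest) and, by a wide margin, in Saa2 (39.5 CPM), Orm1 (1722), Orm2 (878), Hp (5981), Hpx (9887) and Apcs (209). Its Saa4, at 148 CPM, lay inside the range of the others. Markers of some other cell types were high in it too. Of the 18 livers it had the highest summed neutrophil (5.99 CPM, next to 3.57), Kupffer cell and macrophage (337, next to 279), cholangiocyte (89.9, next to 65.9) and lymphocyte markers (14.8, next to 13.4). From the highest down it ranked 3 of 18 in erythroid, 9 in stellate, 11 in endothelial and 13 in hepatocyte markers, and it was the lowest in the adipocyte list (209 CPM). What set it apart was not tested. The other 17 WT livers on caloric restriction had Saa1 at 3.74 to 36.1 CPM, Lcn2 at 2.29 to 10.1 CPM, Orm2 at 13.1 to 171 CPM and Hp at 1287 to 2079.9 CPM. On the control diet 3 WT livers stood apart. Replicate 3 at ZT0 had Saa1 at 109 CPM, against 16.7 and 20.7 in its group, and was also the highest of the 3 in Saa2 (21.6 CPM), Lcn2 (9.97) and Hpx (4726). Replicate 4 at ZT12 was high in Saa1 (138 CPM) and Saa2 (14.1), and replicate 4 at ZT20 in Saa1 (93.0 CPM), Saa2 (13.8), Saa3 (11.4) and Lcn2 (7.93). The highest GRLKO liver in Saa1 was replicate 1 at ZT20 on caloric restriction, at 76.2 CPM. The genotype differences averaged over time are given with and without these WT libraries where a call or a direction turned on them.

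The genes sit at a few places in the genome. The 4 serum amyloid A genes lie within 42.3 kb of chromosome 7 (GRCm38, GENCODE annotation), in the order Saa3 (chr7:46711998-46715700), Saa4 (chr7:46727998-46732603), Saa1 (chr7:46740497-46742980) and Saa2 (chr7:46751790-46754313), with Saa2 alone on the plus strand. Saa1 and Saa2 face away from each other across 8.81 kb. Orm1 (chr4:63344560-63348163) and Orm2 (chr4:63362449-63365878) flank a related copy, Orm3, within 21.3 kb of chromosome 4. Lcn2 lies at chr2:32384633-32388252, Hp at chr8:109575128-109579172, Hpx at chr7:105591613-105600137 and Apcs at chr1:172893961-172895041. No annotated gene overlaps any of the 10. The labels do not say whether counting used strand, so unannotated antisense RNA may be among the counts.

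Copies of these genes share sequence, which limits how far reads can be assigned. The longest coding transcripts of Saa1 and Saa2 were 87.3% identical and those of Orm1 and Orm2 91.0%. Of the stretches of 31 bases in the transcripts of Saa1, 30.1% occurred in another gene, and for Saa2 the share was 23.8%, for Orm1 27.5% and for Orm2 34.1%. For Saa3 it was 7.52%, for Saa4 1.58% and for Hp 0.304%, while Lcn2, Hpx and Apcs shared none. The split of counts between Saa1 and Saa2, and between Orm1 and Orm2, is therefore uncertain.

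Per kilobase of the longest coding transcript, the heme and hemoglobin carriers had the highest medians. In the 22 WT livers on the control diet the median level was 1856 CPM per kb for Hpx, 1213 for Hp and 809.9 for Orm1. Saa4, the serum amyloid A that is made constitutively, followed with a median of 129.7 CPM per kb, then Apcs (47.5) and Saa1 (45.8). Orm2 (11.2), Saa2 (3.47), Lcn2 (1.52) and Saa3 (1.15) were lowest on this scale. Lengths are from GENCODE, since the labels do not name the transcripts counted, and the order depends on them, as for Saa3 with 2200 bases against 609 for Saa1 and 652 for Saa2. Hpx, Hp and Orm1 lay above the other 7 genes in range, Hp overlapping with both Hpx and Orm1. Below them Saa1 overlapped with Saa4, Apcs and Saa2, Saa2 also with Apcs, Orm2 with Saa2 and Lcn2, and Saa2, Lcn2 and Saa3 with each other. In the 18 WT livers on caloric restriction the medians were 1969 CPM per kb for Hpx, 1186 for Hp, 778 for Orm1, 97.5 for Apcs, 81.4 for Orm2, 81.2 for Saa4, 15.4 for Saa1, 5.87 for Lcn2, 2.20 for Saa2 and 0.93 for Saa3, and neighbours in this order overlapped in range except Orm1 and Apcs. On this diet Orm2 thus stood beside Saa4 and Apcs, with overlapping ranges, where on the control diet it was below both without overlap. The overlap of Hpx and Hp on caloric restriction rested on WT replicate 2 at ZT8. Without that liver the highest Hp was 1546 CPM per kb, below the lowest Hpx at 1577.5.

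All 10 genes were higher in the corticosterone livers than in the control livers. Each of the 10 was tested and passed an adjusted p of 0.05, each was higher, and for each the 3 corticosterone livers lay above the 3 control livers without overlap. Of all genes tested 8.11% passed, and in 32.9% the groups did not overlap. The median log2 difference was 1.57 over the 10 genes and -0.01 over all genes. The comparison was made in livers with an intact receptor, at the start of the dark phase. The labels do not say whether the controls received a vehicle. If they did not, an effect of the hormone cannot be told apart from one of its administration.

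The largest differences were in Lcn2 and the inducible serum amyloid A genes. Lcn2, whose protein keeps iron from bacteria by binding their siderophores, was at 0.933, 2.36 and 1.24 CPM in the control livers and at 181, 271 and 127 CPM after corticosterone. It went from nearly absent to well expressed in every treated liver, a 125-fold difference (log2 6.97, SE 0.42, edgeR adjusted p = 0.000916). Saa1, which with Saa2 encodes the inducible serum amyloid A of high density lipoprotein, was at 40.0, 34.0 and 31.9 CPM in the control livers and at 1713, 741 and 1437 CPM after corticosterone. The treated livers spread widely, with replicate 2 lowest, yet all were far above the controls, by 36.8-fold (log2 5.20, SE 0.34, edgeR adjusted p = 0.00109). Saa2 was at 3.30, 1.31 and 1.37 CPM against 208, 64.8 and 147 CPM, with the same treated liver lowest. Its difference was 70.8-fold (log2 6.15, SE 0.57, edgeR adjusted p = 0.00222). Saa3, which is made mostly outside hepatocytes, moved on a low level, from 2.01, 3.73 and 2.95 CPM to 12.9, 8.16 and 8.23 CPM (log2 1.74, edgeR adjusted p = 0.0166). Saa4 was at 411, 366 and 289 CPM against 783, 583 and 850.3 CPM, a far smaller shift than that of its inducible neighbours (log2 1.06, edgeR adjusted p = 0.0181).

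Among the orosomucoids, carriers of small lipophilic molecules in plasma, Orm2 was at 7.03, 13.2 and 16.7 CPM in control and at 95.5, 78.2 and 47.6 CPM in corticosterone livers. The rise was steep from a low base (log2 2.58, SE 0.36, edgeR adjusted p = 0.00968). The more abundant Orm1 was at 631, 615 and 737 CPM against 1134, 1045 and 1035 CPM and rose by less (log2 0.70, edgeR adjusted p = 0.013). Haptoglobin binds free hemoglobin, and Hp was at 1697, 1975 and 2142 CPM against 4776, 5545 and 4272 CPM (log2 1.33, edgeR adjusted p = 0.00369). Hpx, whose product takes up free heme, was at 2595, 2685 and 3105 CPM against 6111, 6200.1 and 4877 CPM (log2 1.04, edgeR adjusted p = 0.00754). Both were abundant before treatment, and every treated liver exceeded every control. Apcs, a pentraxin that coats debris and microbes, was at 27.3, 29.3 and 31.1 CPM against 85.9, 97.7 and 47.4 CPM (log2 1.40, edgeR adjusted p = 0.02), with replicate 3 the lowest of the treated livers. The calls of Saa1, Saa2, Lcn2 and Hp were kept when any 1 of the 6 libraries was left out. Apcs lost its call without control replicates 1, 2 or 3 or corticosterone replicate 1, Saa4 without control replicates 2 or 3 or corticosterone replicates 1 or 3, Orm1 without control replicates 1 or 2, Saa3 without control replicate 3, and Orm2 and Hpx without control replicate 2, which left 5 genes called. In that fit 1.76% of all genes passed, and the log2 differences were 2.63 for Orm2, 1.01 for Hpx and 1.40 for Apcs.

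**Figure D1:**
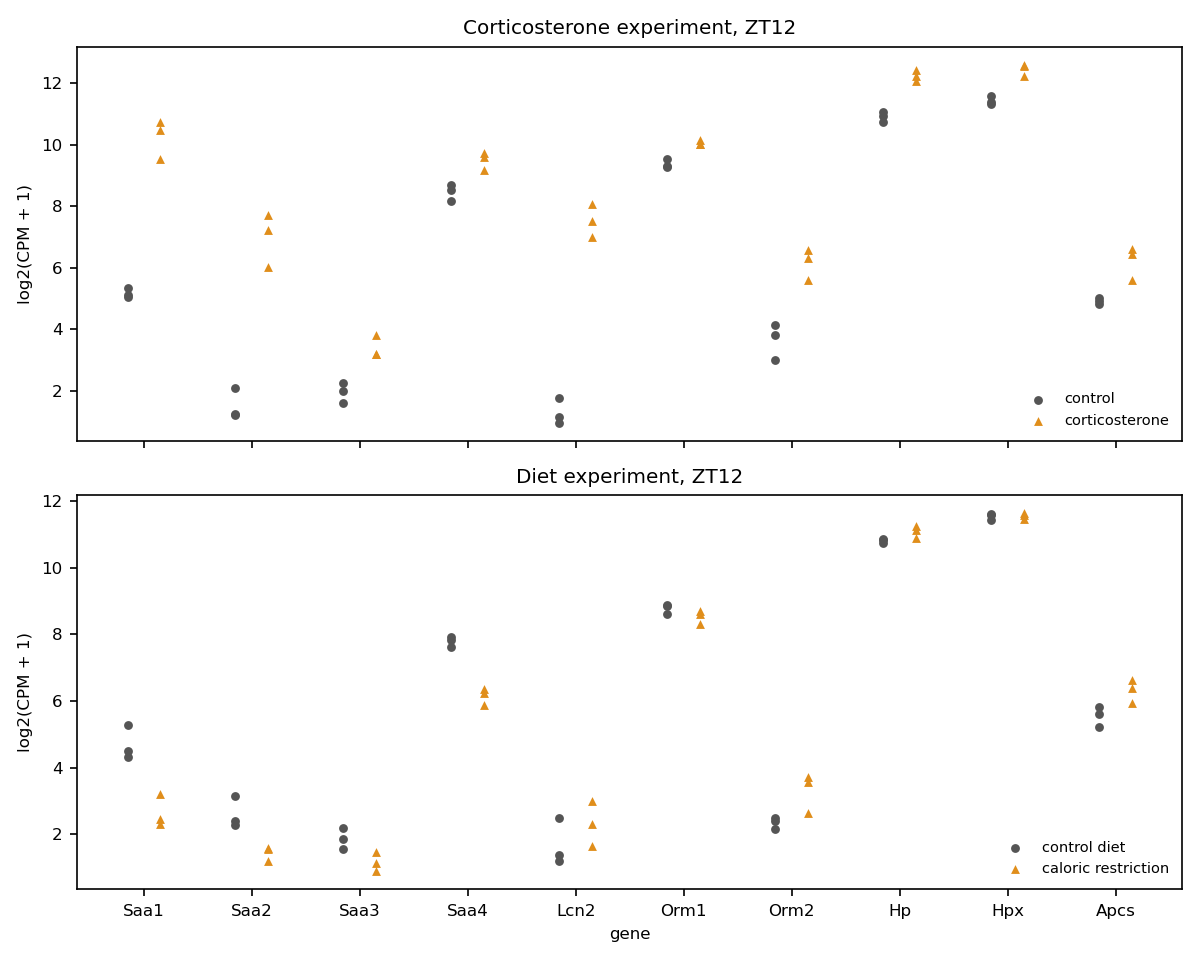
Level of each of the 10 genes in log2(CPM + 1), 1 point per liver, in the corticosterone experiment (top) and in the diet experiment (bottom), with 3 livers per group. In the top panel the triangles of the corticosterone livers lie above the circles of the controls for every gene, and in the bottom panel the caloric restriction livers lie below the controls for Saa1, Saa2, Saa3 and Saa4.

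Part of the other acute phase genes of the liver also rose. Of 22 further acute phase genes tested, 11 rose, 1 fell and 10 did not pass, while of 11523 genes tested in all 515 were higher and 420 lower. Those with the lowest adjusted p were Orm3, the third orosomucoid (log2 3.33), Itih4 (log2 1.40), the fibrinogen-like gene Fgl1 (log2 2.68) and Lrg1, a leucine-rich glycoprotein (log2 1.52). The gene that fell was Hamp2, a relative of the iron hormone hepcidin (log2 -1.91). Of 9 negative acute phase genes, whose products decline in inflammation, 0 passed edgeR's test and 4 had an unadjusted p under 0.05. DESeq2 was not run on the lists. Of 21 tested genes of cytokine signaling, 9 rose and 2 fell, led by the transcription factor genes Cebpb (log2 2.04) and Cebpd (log2 2.67), the interleukin receptor gene Il1r1 (log2 2.79) and Stat3 (log2 1.04). Of 10 tested partner and receptor genes, such as the hemoglobin scavenger receptor Cd163, 0 passed edgeR's test and 5 had an unadjusted p under 0.05.

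Some markers of cell types moved beside these genes. Of 7 hepatocyte markers, 2 were higher after corticosterone, Tat (log2 1.35) and Hnf4a (log2 0.84). The summed level of the 7 was 96992, 91792 and 94890.5 CPM in the control and 96455, 103766 and 89603 CPM in the corticosterone livers, most of it Alb. Of 8 markers of Kupffer cells and macrophages, 2 were higher, Cd5l (log2 0.77) and Marco (log2 1.58), with a summed level of 79.0, 98.5 and 108 CPM against 114, 161 and 131 CPM, without overlap, Clec4f being the most abundant over all libraries and none at 0. A single marker was lower in each of the endothelial (Kdr), cholangiocyte (Sox9), stellate (Lrat) and adipocyte (Car3) lists. Summed levels were lower without overlap for the endothelial list (95.0, 102 and 120.3 CPM against 76.9, 85.8 and 91.9 CPM) and the adipocyte list (3322, 2766 and 2564 CPM against 1741, 1684 and 1221 CPM). The latter is nearly all Car3 and says little about fat cells, since over the 90 libraries Plin1 was at 0 in 90, Lep in 89, Retn in 63 and Adipoq in 62. Neutrophils also make Lcn2, and the summed level of their 9 markers was higher without overlap after corticosterone, at 0.789, 1.99 and 1.85 CPM in the control and 3.71, 5.11 and 2.45 CPM in the treated livers. Only S100a9 and Cxcr2 had counts enough to be tested, 0 of these 2 passed edgeR's test and S100a9 had an unadjusted p under 0.05 (log2 1.82). Over the 90 libraries Cxcr2 was the most abundant of the 9, S100a8 and S100a9 were at 0 in 7 each, and Ly6g, Camp and Ltf in 87, 82 and 81. Of erythroid markers 0 of 5 passed edgeR's test with 5 at an unadjusted p under 0.05, all lower, and their sum was lower without overlap (698, 632 and 788 CPM against 326, 561 and 299 CPM). The 1 lymphocyte marker tested did not pass, with 0 at an unadjusted p under 0.05. The part of other cell types in the rise of the acute phase genes was not tested.

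Caloric restriction at ZT12 lowered the serum amyloid A genes. In the diet experiment 6 of 10 genes passed the test, 4 lower and 2 higher, where 47.1% of all genes tested passed. The 4 that fell were the 4 serum amyloid A genes, and the 2 that rose were Orm2 and Apcs. For 7 of the 10 genes the groups of 3 did not overlap, as for 59% of all genes tested.

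Saa1 was at 21.5, 37.6 and 18.8 CPM in the control livers and at 8.25, 4.44 and 3.99 CPM on caloric restriction, 4.68-fold lower (log2 -2.23, SE 0.36, edgeR adjusted p = 0.00254). Saa2 was at 4.21, 7.83 and 3.79 CPM against 1.99, 1.95 and 1.28 CPM (log2 -1.60, SE 0.33, edgeR adjusted p = 0.00655). Every restricted liver was below every control in both genes, and control replicate 2 was the highest in each. The constitutive Saa4 was at 197, 226 and 241 CPM against 81.5, 74.8 and 57.6 CPM (log2 -1.63, SE 0.14, edgeR adjusted p = 0.000319), with tight groups far apart. Saa3 was at 3.53, 2.62 and 1.92 CPM against 0.851, 1.77 and 1.20 CPM, a fall at a level of a few CPM (log2 -1.08, edgeR adjusted p = 0.0313). The orosomucoid Orm2 was at 4.23, 4.66 and 3.45 CPM in the control livers and at 12.2, 10.8 and 5.16 CPM on caloric restriction (log2 1.19, edgeR adjusted p = 0.0171). Restricted replicate 3 was only slightly above the highest control. The pentraxin gene Apcs was at 36.2, 55.5 and 47.7 CPM against 60.4, 97.4 and 82.3 CPM (log2 0.79, edgeR adjusted p = 0.0181). The remaining 4 genes did not pass. Lcn2 was at 1.30, 4.58 and 1.58 CPM against 7.03, 3.92 and 2.10 CPM (log2 0.81, edgeR adjusted p = 0.286) and Hp at 1828, 1881 and 1706 CPM against 1902, 2273 and 2471 CPM (log2 0.30, edgeR adjusted p = 0.0579). Hp did not overlap between the groups and was called by DESeq2 and without restricted replicate 1. The log2 differences of Orm1 and Hpx were -0.23 and 0.02.

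Saa1, Saa2 and Saa4 kept their calls when any 1 of the 6 libraries was left out. Saa3 lost its call without control replicates 1 or 2 or restricted replicates 1 or 3, Orm2 without control replicates 1 or 3 or restricted replicate 2, and Apcs without control replicate 1 or restricted replicate 2. Without control replicate 1 the count of called genes was 3, with 35.5% of all genes called and a log2 difference of 1.21 for Orm2. When the comparison was made on the WT livers of the time series at ZT12, where diet and library batch coincide, 4 genes passed, Saa4, Lcn2, Orm2 and Apcs, with 38.1% of all genes. Saa1, Saa2 and Saa3 were lower there too but not called. There Orm2 was at 8.58, 8.98, 6.63 and 11.9 CPM on the control diet and at 37.4, 83.1 and 61.0 CPM on caloric restriction, and Saa1 was at 24.7, 26.1, 29.7 and 138 CPM against 5.76, 22.3 and 7.01 CPM. Groups overlapped in neither gene.

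Genes of the wider acute phase lists moved both ways on caloric restriction, and whether the lists differ from all genes was not tested. Of 23 other acute phase genes 10 rose and 2 fell, while of 13062 genes tested in all 3073 were higher and 3082 lower. The list genes with the lowest adjusted p were Mbl1, a mannose-binding lectin of complement that fell, the metalloreductase gene Steap4 (log2 -1.68), the complement gene C3 (log2 0.97) and Hamp2 (log2 2.95). Of 9 negative acute phase genes 3 rose, Alb (log2 0.99), the retinol carrier Rbp4 (log2 0.61) and transferrin, Trf (log2 0.60). Of 22 genes of cytokine signaling, 10 rose and 3 fell, with the lowest adjusted p in Il6ra (log2 1.60), Nfkbia, which rose, Lifr, which fell, and Onecut1 (log2 -2.70). Of 12 partner and receptor genes 6 rose and 1 fell, including the heme oxygenase genes Hmox2 (log2 0.47) and Hmox1 (log2 1.20), Cd163 (log2 1.21) and Ager (log2 1.90). Hepatocyte markers were higher on caloric restriction in 4 of 7, with summed levels of 80141, 81667 and 86886 CPM in the control and 155142, 156747 and 162453 CPM in the restricted livers, and endothelial markers in 4 of 6 (116, 149 and 152 CPM against 194, 194 and 222 CPM, with Clec4g the most abundant over all libraries and none at 0). Neutrophil markers had sums of 1.70, 2.64 and 2.71 CPM against 5.11, 4.67 and 5.76 CPM, without overlap, and the 1 tested, Cxcr2, was higher (log2 1.47). Of the adipocyte list, Car3 and Cidec had counts enough to be tested and both were lower (summed over the list 1175, 1155 and 1144 CPM against 263, 95.8 and 67.9 CPM, nearly all Car3), while the rest of the list was near or at 0, as given above. Lymphocyte markers were lower in 2 of 3 (9.77, 9.84 and 7.77 CPM against 2.33, 3.35 and 5.13 CPM, with Ighm the most abundant over all libraries). Of 6 stellate markers 2 were higher and 1 lower, of 4 tested cholangiocyte markers 2 were higher, and 1 was lower among 8 of Kupffer cells and macrophages and among 5 of erythroid cells. Their part in the differences of the acute phase genes was not tested.

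Without the hepatocyte receptor several acute phase genes were lower on caloric restriction. Averaged over the 6 times, 5 of 10 genes passed, with Lcn2, Orm1, Hp and Apcs lower and Saa4 higher in GRLKO, where 32.9% of all genes tested passed. The median log2 difference was -0.28 over the 10 genes and 0.00 over all genes. The ranges of the 18 WT and 18 GRLKO livers overlapped for all 10 genes. The siderophore-binding Lcn2 was at 2.29 to 174 CPM with a median of 5.37 in WT and at 0.448 to 8.07 CPM with a median of 1.504 in GRLKO livers. It had the largest fall, a log2 difference of -2.20 (SE 0.41, edgeR adjusted p = 0.00012), and its sign was the same at all 6 times. Without WT replicate 2 at ZT8 the log2 difference was -1.53, and without all libraries numbered 2 it was -1.41, and the call was kept in both. Hp was at 1287 to 5981 CPM with a median of 1595 in WT and at 629 to 1723 CPM with a median of 1026 in GRLKO livers. The hemoglobin carrier was lower by a log2 difference of -0.74 (SE 0.13, edgeR adjusted p = 7.74e-05) and again had the same sign at all 6 times. Its partner in heme clearance, Hpx, was at 2365 to 9887 CPM with a median of 2951 in WT and 2415 to 4797 CPM with a median of 3273 in GRLKO livers, with a log2 difference of -0.05 (edgeR adjusted p = 0.776).

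The pentraxin gene Apcs was at 57.2 to 209 CPM with a median of 94.6 in WT and at 44.7 to 86.8 CPM with a median of 68.1 in GRLKO livers on caloric restriction. Its log2 difference was -0.52 (SE 0.10, edgeR adjusted p = 0.000125). Orm1 was at 529.8 to 1722 CPM with a median of 603 in WT and at 393 to 735 CPM with a median of 484 in GRLKO livers, a log2 difference of -0.35 (edgeR adjusted p = 0.00715) whose call was lost without the libraries numbered 1. Orm2 was at 13.1 to 878 CPM with a median of 63.1 in WT and at 25.0 to 289 CPM with a median of 131 in GRLKO livers. Its median was higher in GRLKO, opposite to Orm1, but the log2 difference of 0.74 missed the threshold (edgeR adjusted p = 0.053). Without WT replicate 2 at ZT8, chosen for omission after its values were seen, the difference was 1.11 and passed, which made 6 genes called (with 32.1% of all genes), and it also passed without all libraries numbered 2 and by DESeq2. Saa4 was at 109 to 274 CPM with a median of 169.9 in WT and at 162 to 298 CPM with a median of 189.6 in GRLKO livers. It was the single gene of the 10 that was called higher (log2 0.26, edgeR adjusted p = 0.0042). By time, the Saa4 difference was positive at 5 times and negative at 1, ZT12 (log2 -0.28). For the inducible Saa1, levels were 3.74 to 244 CPM with a median of 9.39 in WT and 6.04 to 76.2 CPM with a median of 11.6 in GRLKO livers, with a log2 difference of -0.22 (edgeR adjusted p = 0.694). Saa2 and Saa3 differed by a log2 of -0.36 and 0.23, and none of the 3 was called. Without WT replicate 2 at ZT8 the sign turned for Saa1 (0.37), Saa2 (0.18) and Hpx (0.10), which were not called there either.

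On the control diet, too, 5 of 10 genes passed, and all 5 were lower in GRLKO, Saa1, Saa4, Lcn2, Orm1 and Hp, where 18.6% of all genes tested passed. The median log2 difference was -0.28 over the 10 genes and 0.00 over all genes. The inducible Saa1 was at 12.8 to 138 CPM with a median of 27.9 in WT and at 11.6 to 31.4 CPM with a median of 17.2 in GRLKO livers. The log2 difference was -0.97 (SE 0.22, edgeR adjusted p = 0.00148). Lcn2 was at 0.266 to 9.97 CPM with a median of 1.39 in WT and at 0 to 2.21 CPM with a median of 0.665 in GRLKO livers. On this low level its log2 difference was -1.69 (SE 0.36, edgeR adjusted p = 0.000648). Saa4 was at 153 to 545 CPM with a median of 272 in WT and at 114 to 328 CPM with a median of 242 in GRLKO livers. It was lower here by a log2 of -0.28 (edgeR adjusted p = 0.00573), opposite in sign to caloric restriction. Hp was at 1248 to 2429.8 CPM with a median of 1631 in WT and at 1024 to 1729 CPM with a median of 1360.0 in GRLKO livers (log2 -0.28, edgeR adjusted p = 0.000355). Orm1, with 436 to 745 CPM with a median of 628 in WT and 401 to 731 CPM with a median of 534 in GRLKO livers, differed by -0.22 (edgeR adjusted p = 0.00252). Of the 22 WT livers 10 exceeded every GRLKO liver in Saa1, 10 in Saa4 and 10 in Hp. The 5 genes not called had log2 differences of -0.72 (Saa2), -0.38 (Saa3), 0.43 (Orm2), 0.04 (Hpx) and 0.06 (Apcs), and DESeq2 called Orm2 in addition. Without the 3 WT livers highest in Saa1, an omission chosen after seeing the data that lowers the Saa1 difference by its construction, the 5 calls were kept, Lcn2 differed by -1.06, Orm2 and Hpx were added as higher in GRLKO, and Saa2, which had no call, turned sign (0.11). Saa1 itself then differed by -0.48. Saa4 and Orm1 lost their calls without the libraries numbered 1, which left 3 called, with 11.8% of all genes.

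**Figure D2:**
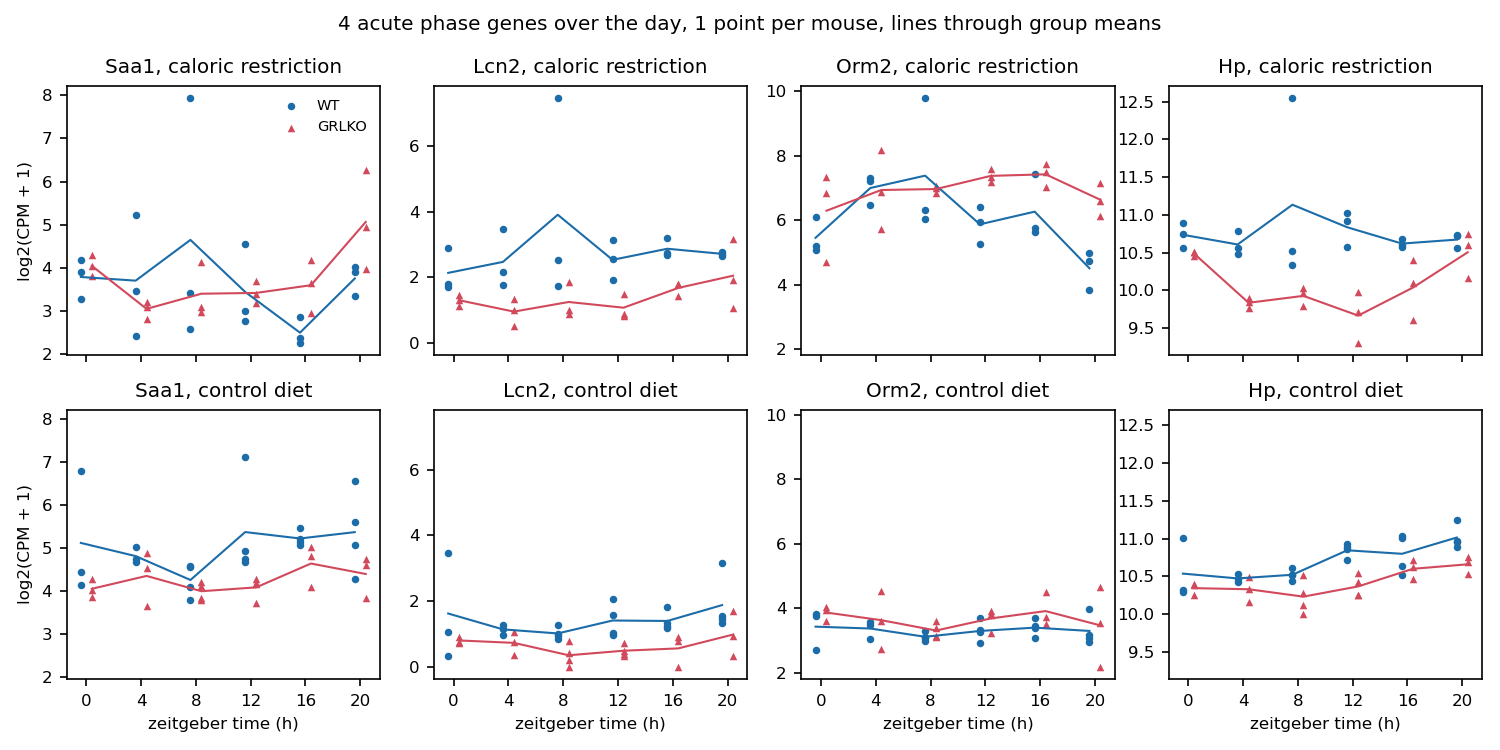
Levels of Saa1, Lcn2, Orm2 and Hp in log2(CPM + 1) against zeitgeber time in hours, on caloric restriction (top) and on the control diet (bottom), with 1 point per mouse (circles WT, triangles GRLKO) and lines through the group means. WT replicate 2 at ZT8 on caloric restriction is the isolated high point, with Lcn2 at 174 CPM.

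At single times the differences between genotypes on caloric restriction were seen in Lcn2, Orm2, Hp and Apcs. Of 60 pairs of a gene and a time, 7 passed, 3 of them at ZT12, the start of the dark phase. There Orm2 was at 37.4, 83.1 and 61.0 CPM in WT and 191, 162 and 145 CPM in GRLKO livers (log2 1.45, edgeR adjusted p = 0.0128). Hp was at 2079.9, 1518 and 1932 CPM against 1011, 629 and 837 CPM (log2 -1.16, edgeR adjusted p = 0.00912). Lcn2 was at 4.84, 2.79 and 7.79 CPM against 1.84, 0.789 and 0.855 CPM (log2 -2.15, edgeR adjusted p = 0.0249). The groups overlapped in none of the 3 genes, so 2 were lower and 1 was higher without the receptor, where 15.3% of all genes tested passed at ZT12. In all, the groups did not overlap there for 4 of the 10 genes and for 36.9% of all genes tested. Summed markers of cell types also differed without overlap at ZT12. Hepatocyte markers were lower (162922, 164844 and 168468 CPM against 122065, 128872 and 112880.0 CPM), and those of Kupffer cells and macrophages (48.6, 78.4 and 57.0 CPM against 134, 109.7 and 139 CPM), endothelial cells (164, 149 and 179 CPM against 212, 198 and 220.5 CPM), lymphocytes (1.47, 1.05 and 1.57 CPM against 2.82, 4.96 and 5.19 CPM) and cholangiocytes (26.4, 31.2 and 28.9 CPM against 31.4, 32.4 and 31.7 CPM) were higher in GRLKO, as was the adipocyte list, nearly all Car3 (summed 269, 421 and 264 CPM against 1485, 1828 and 1823 CPM). Their part in the differences of the 3 genes was not tested. At ZT16, where 4.54% of genes passed, Lcn2 (log2 -1.51, edgeR adjusted p = 0.0186) and Apcs (log2 -0.63, edgeR adjusted p = 0.0476) were lower, and Saa2 was too low to be tested. At ZT20 (1.47% of genes) Orm2 was at 13.1, 30.5 and 25.5 CPM in WT and at 96.3, 142 and 69.1 CPM in GRLKO livers (log2 2.16, edgeR adjusted p = 0.0373). At ZT4 (0.69% of genes) Hp was at 1765, 1423 and 1510.4 CPM against 949.8, 869.7 and 918 CPM (log2 -0.78, edgeR adjusted p = 0.0315). No gene of the 10 was called by edgeR at ZT0 (0.502% of genes, with 5 of the 10 at an unadjusted p under 0.05 and Orm1 called by DESeq2) or at ZT8 (2.55% of genes, with 5 at an unadjusted p under 0.05 and 0 called by DESeq2).

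Few of these calls at single times were kept with every library left out in turn. Orm2 and Hp at ZT12 kept theirs in all 6 cases. Lcn2 lost its call at ZT12 without WT replicates 1 or 3 or GRLKO replicates 2 or 3, and at ZT16 without WT replicate 1 or GRLKO replicates 2 or 3. Apcs at ZT16 kept its call only without GRLKO replicate 1, Orm2 at ZT20 only without GRLKO replicate 3, and Hp at ZT4 only without WT replicate 3. Calls were added for Orm2 at ZT8 without WT replicate 2 (log2 0.80 in place of -1.45) and at ZT16 without WT replicate 3. For Saa4 they were added at ZT4 without WT replicate 3 (log2 0.75) and, in the other direction, at ZT12 without WT replicate 1 (log2 -0.45). A call for Saa1 was added at ZT16 without GRLKO replicate 3. Over the 6 times together 4.12% of pairs of all genes passed. DESeq2 called 17 pairs, among them the 7, and 7.37% of all. When all times were fitted together, 9 pairs were called (7.93% of all), 7 of them at ZT8, the time of the WT library that stood apart, and 1 was shared with the fits by time.

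On the control diet 3 of 60 pairs passed, 2 of them in Saa4. At ZT12, where 2.08% of genes passed, Saa4 was at 410.4, 464, 449 and 347 CPM in WT and at 224, 246, 270.0 and 274 CPM in GRLKO livers (log2 -0.72, edgeR adjusted p = 0.0114). At ZT16, where 1.98% of genes passed, it was at 465, 508, 545 and 514 CPM against 245, 328 and 296 CPM (log2 -0.81, edgeR adjusted p = 0.014). Every WT liver was above every GRLKO liver at both times. Hp at ZT12 was at 1677, 1856, 1891 and 1939 CPM against 1213, 1222, 1487 and 1370.5 CPM, also without overlap (log2 -0.47, edgeR adjusted p = 0.0317). The groups did not overlap for 4 of the 10 genes at each of these times, and for 8.44% of all genes tested at ZT12 and 16.8% at ZT16. At ZT12 the summed lymphocyte markers were higher in GRLKO without overlap (6.79, 6.24, 0.958 and 3.19 CPM against 7.32, 19.1, 34.4 and 16.3 CPM), and at ZT16 too (8.86, 8.74, 9.91 and 5.34 CPM against 58.7, 22.2 and 10.2 CPM), as was the adipocyte list, nearly all Car3, at ZT12 (3672, 2535, 2966 and 2211 CPM against 3992, 3869, 6155 and 4661 CPM) and ZT16 (3166, 2886, 1996 and 2110.0 CPM against 5705, 5588 and 5249 CPM). At ZT16 hepatocyte (87676, 93468, 87336 and 82445 CPM against 77599, 66586 and 79435 CPM) and endothelial markers (105, 109, 105 and 106 CPM against 103, 80.2 and 98.9 CPM) were lower without overlap. No gene of the 10 was called by edgeR or by DESeq2 at ZT0 (0.536% of genes), ZT4 (0.195%), ZT8 (1.43%) or ZT20 (0.42%), with 2 genes at an unadjusted p under 0.05 at each of these times. The call of Saa4 at ZT12 was kept with each library left out, that at ZT16 was lost without GRLKO replicate 3, and that of Hp was lost without WT replicates 2, 3 or 4 or GRLKO replicates 1, 2 or 4. In a fit of all times together Saa1 at ZT12 was added, and DESeq2 added Saa2, Lcn2 and Orm1 at ZT12, where of pairs of all genes 1.1% passed over the 6 times, 2.74% in the fit together and 3.54% by DESeq2.

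Whether the genotype difference depended on diet was tested on the averages over the 6 times, and 2 of 10 genes passed, where 3.01% of all genes tested passed. Saa4 was higher in GRLKO on caloric restriction (log2 0.26) and lower on the control diet (log2 -0.28), and the difference between the diets was 0.55 (SE 0.11, edgeR adjusted p = 0.000873). Apcs was lower in GRLKO on caloric restriction (log2 -0.52) and differed by 0.06 on the control diet, a difference between diets of -0.58 (SE 0.12, edgeR adjusted p = 0.00186). Hp, with log2 differences of -0.74 and -0.28, just missed the threshold (-0.46, edgeR adjusted p = 0.0516). It was called by DESeq2 and without the 3 WT livers highest in Saa1. Without WT replicate 2 at ZT8 its difference between diets was smaller, -0.29, with no call. Saa1, lower in GRLKO on the control diet (log2 -0.97), had a difference between diets of 0.75 (edgeR adjusted p = 0.383), which became 1.34 and was called without WT replicate 2 at ZT8, and was 0.26 with no call without the 3 WT livers highest in Saa1. For Lcn2 the difference between diets was -0.51 (edgeR adjusted p = 0.739), 0.17 without WT replicate 2 at ZT8 and -1.14 without the 3 WT livers highest in Saa1, with no call in either. The difference of Saa2 turned from 0.36 to -0.47 without the 3 WT livers highest in Saa1. That of Hpx turned from -0.09 to 0.06 without WT replicate 2 at ZT8, and neither was called. A dependence of the genotype difference on time was called by edgeR for 0 of 10 genes on caloric restriction, where 5.34% of all genes passed, although 8 had an unadjusted p under 0.05 and DESeq2 called Saa1, Saa2 and Saa4. Without WT replicate 2 at ZT8, Hpx was called. On the control diet 0 of 10 were called, where 0.6% of all genes passed, with Saa4 alone at an unadjusted p under 0.05, called by DESeq2 and without the libraries numbered 1.

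**Figure D3:**
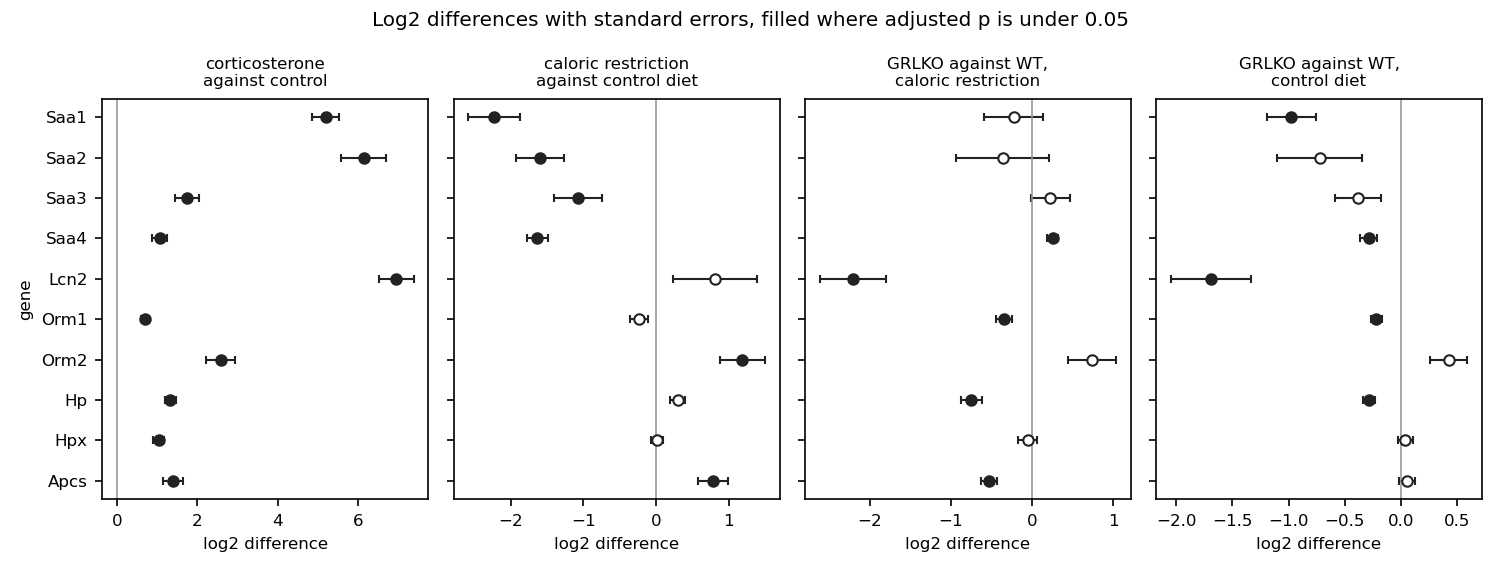
Log2 differences of the 10 genes with standard errors as bars, from left to right for corticosterone against control, caloric restriction against control diet, and GRLKO against WT averaged over 6 times on caloric restriction and on the control diet, with filled points for an adjusted p under 0.05. All 10 points are filled and to the right of 0 for corticosterone, up to 6.97 for Lcn2, while Saa4 lies at 0.26 and at -0.28 in the panels of GRLKO against WT.

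The diets of the time series come from separate tables with separate series of library numbers, so a difference in level between them cannot be told apart from a difference between batches. Orm2 had medians of 63.1 CPM in WT and 131 CPM in GRLKO livers on caloric restriction and of 8.67 CPM and 11.3 CPM on the control diet. In WT the lowest liver on caloric restriction, at 13.1 CPM, was below the highest on the control diet, at 14.6 CPM. Within the diet experiment, which is 1 table, Orm2 also rose, by a log2 of 1.19 from a lower level. Saa1 had lower medians on caloric restriction, 9.39 CPM in WT and 11.6 CPM in GRLKO livers, than on the control diet, 27.9 CPM and 17.2 CPM. Apcs had higher ones, 94.6 CPM and 68.1 CPM against 46.1 CPM and 47.2 CPM.

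Other genes of the acute phase lists also differed between genotypes. On caloric restriction of 13041 genes tested in all 2039 were higher and 2258 lower, and on the control diet of 12834 genes tested in all 1286 were higher and 1103 lower. On caloric restriction, of 23 other acute phase genes 5 were higher and 8 lower in GRLKO, with the lowest adjusted p in Hamp2 (log2 3.68), Lrg1 (log2 -1.16), the copper carrier ceruloplasmin, Cp (log2 -0.64), and the lectin gene Mbl2 (log2 0.30). On the control diet 3 were higher and 10 lower, with the lowest adjusted p in Cp (log2 -0.39), Hamp2 (log2 2.37), Itih3 (log2 -0.35) and the lipopolysaccharide-binding Lbp (log2 -0.37). Of 9 negative acute phase genes 1 was higher and 5 lower on caloric restriction, and 1 higher and 4 lower on the control diet, the higher one being Serpina6, the corticosteroid-binding globulin (log2 1.56 and 0.64). Of 22 genes of cytokine signaling 2 were higher and 8 lower on each diet, with the receptor genes Il6ra (log2 -0.94 and -0.89) and Il1r1 (log2 -1.51 and -1.01) lower on both. Among partners and receptors, 1 of 12 was higher and 2 lower on caloric restriction, and 1 of 11 higher and 3 lower on the control diet. Hmox1, which breaks down heme, was the higher one each time (log2 0.45 and 0.79).

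Cell type markers moved with genotype as well. Hepatocyte markers were lower in GRLKO for 5 of 7 genes on each diet, with summed levels of 108109 to 168468 CPM (median 126710.0) in WT and 93611 to 131481 CPM (median 104916) in GRLKO livers on caloric restriction, and 71918 to 106157 CPM (median 87676) and 60552 to 91177 CPM (median 72893) on the control diet. Endothelial markers were higher for 6 of 6 genes on caloric restriction, at 149 to 213 CPM (median 172) in WT and 168 to 237 CPM (median 205) in GRLKO livers, and for 0 of 6 by edgeR on the control diet, where 2 had an unadjusted p under 0.05. The most abundant over all libraries was Clec4g. Of lymphocyte markers, 2 of 3 tested were higher on caloric restriction and 1 of 3 on the control diet, with Ighm the most abundant. Of the adipocyte list, Car3 and Cidec were tested and higher on both diets, while the rest of the list was near or at 0. Of 8 markers of Kupffer cells and macrophages 0 passed edgeR's test on either diet, with 4 at an unadjusted p under 0.05 on caloric restriction and 0 on the control diet. Of neutrophil markers 0 of 3 tested passed edgeR's test on caloric restriction and 0 of 2 on the control diet, with S100a9 at an unadjusted p under 0.05 on both. At single times, the summed hepatocyte markers were lower in GRLKO without overlap at 4 of 6 times on caloric restriction and 3 of 6 on the control diet, and the summed lymphocyte markers higher at 5 and 5. On caloric restriction endothelial sums were higher without overlap at 3 times, those of Kupffer cells and macrophages at 1, ZT12, and those of neutrophils at 1, ZT0. Among all single genes tested, the genotypes did not overlap in 20.4% to 36.9% by time on caloric restriction. On the control diet the share was 7.43% to 22.5%. Whether the marker sums differ from these shares was not tested. A single erythroid marker, Alas2, was called higher on each diet, and 1 cholangiocyte and 1 stellate marker on caloric restriction. The part of these cells in the genotype differences of the acute phase genes was not tested.

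How many of the 10 genes were called rhythmic over the day depended on the test, and whether rhythm differed between the diets was not tested. By JTK 1 to 3 per group were called. Among only the genes past the count filter, the set used for the sine and cosine terms, JTK added Orm1 in GRLKO livers on caloric restriction, which made 4. The other groups were unchanged. The shares of those genes called by JTK were 41.6% in WT and 38.7% in GRLKO livers on caloric restriction. On the control diet they were 48.8% and 44%. Sine and cosine terms of 24 hours in edgeR called 3 of 10 genes in WT livers (53.6% of all genes) and 8 of 10 genes in GRLKO livers (49.5% of all genes) on caloric restriction, and 3 of 10 genes in WT livers (55.8% of all genes) and 2 of 10 genes in GRLKO livers (51% of all genes) on the control diet. By the JTK test of a 24-hour rhythm, 3 of 10 genes were rhythmic in WT livers on the control diet, where 30.8% of all genes were. Saa4 had mean levels from 193 CPM at ZT0 to 508 CPM at ZT16 and a peak at ZT16 (JTK adjusted p = 0.000145). Apcs ran in antiphase to it, with mean levels from 30.04 CPM at ZT16 to 55.6 CPM at ZT4 and a peak at ZT4 (JTK adjusted p = 0.000649). Both calls were kept when the libraries of each replicate number were left out. Hp, with mean levels from 1419.7 CPM at ZT4 to 2077 CPM at ZT20 and a peak at ZT18 (JTK adjusted p = 0.0365), lost its call in each of these 4 omissions, under which 18.2% to 24.3% of all genes were called. Hpx was added without the 3 WT livers highest in Saa1. In GRLKO livers on the control diet, where 26.6% of all genes were rhythmic, 2 of 10 were, Apcs with a peak at ZT4 (JTK adjusted p = 0.0361) and Hp with a peak at ZT18 (JTK adjusted p = 0.035). The call of Apcs was lost with each replicate number left out, and that of Hp with numbers 1, 2 or 4, under which 12.8% to 22.8% of all genes were called. Saa4, which did not pass in these livers (JTK adjusted p = 0.243), had mean levels from 228 CPM at ZT20 to 289.5 CPM at ZT16. That its rhythm differed between genotypes was not called by edgeR's test of genotype by time (adjusted p = 0.0688).

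On caloric restriction, 1 of 10 genes was rhythmic in WT livers, where 26.8% of all genes were. This was Orm2, with mean levels from 23.0 CPM at ZT20 to 341 CPM at ZT8 and a peak at ZT8 (JTK adjusted p = 0.0485), and its call was lost without WT replicate 2 at ZT8 and with each replicate number left out (7.08% to 9.83% of all genes called). The mean at ZT8 rested on that liver (65.2, 878 and 78.4 CPM), and without it was 71.8 CPM, which left the highest mean at ZT4, 131 CPM. In GRLKO livers, where 22.9% of all genes were rhythmic, 3 of 10 were. Hpx had mean levels from 2556 CPM at ZT8 to 3986 CPM at ZT20 and a peak at ZT20 (JTK adjusted p = 0.00438), Saa4 had mean levels from 173 CPM at ZT8 to 259 CPM at ZT16 and a peak at ZT18 (JTK adjusted p = 0.013), and Hp had mean levels from 826 CPM at ZT12 to 1472 CPM at ZT20 and a peak at ZT22 (JTK adjusted p = 0.0391). The call of Hp was lost with each replicate number left out (6.11% to 7.03% of all genes called), that of Saa4 without numbers 1 or 2 and that of Hpx without numbers 1 or 3, and Saa1 was added without number 3.

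Among single mice, Saa2, Saa3, Lcn2 and Hpx varied with Saa1. After the mean of each group was removed, Saa1 was compared with the 9 other genes over the 78 livers of the time series, on log2 CPM, with p from 100000 permutations of mice within their group and adjusted over all 13375 genes compared. By Spearman rho Lcn2 and Saa2 were above the heme carrier Hpx. By r without the 2 farthest livers given below, Saa3, Saa2 and Lcn2 were above it. By Pearson r over all 78 livers Hpx came first (Pearson r = 0.791, permutation p = 5e-05, Spearman rho = 0.559, permutation p = 6e-05, adjusted p = 0.00998). Lcn2 followed (r = 0.778, rho = 0.665, adjusted permutation p = 0.00514), then the related Saa2 (r = 0.73, rho = 0.591, adjusted permutation p = 0.00514). For both, the unadjusted p of r was 1e-05, the smallest that these permutations can give. Saa1 and Saa2 share sequence, so the split of their counts is uncertain. The part of that split in the r of Saa2 was not tested. Saa3 was the fourth to pass (r = 0.597, rho = 0.527, adjusted permutation p = 0.00787). Of the 9 genes 4 passed, where 4.01% of all genes did. Hp had r = 0.675 and rho = 0.382 (adjusted permutation p = 0.0629), Orm2 r = 0.462, Orm1 r = 0.383 and Apcs r = 0.324. Saa4, the constitutive neighbour of Saa1, had no call (r = -0.155, rho = -0.0852, adjusted permutation p = 0.529). The median r over the 9 genes was 0.597, against -0.0217 over all genes. Without the 2 livers farthest from the median of Saa1, WT replicate 2 at ZT8 on caloric restriction and WT replicate 4 at ZT12 on the control diet, the median r was 0.397. For single genes r without these 2 livers was 0.623 for Hpx, 0.654 for Lcn2, 0.666 for Saa2, 0.705 for Saa3, 0.397 for Hp, 0.173 for Orm2, -0.196 for Orm1 and -0.0285 for Apcs, so those of Orm1, Orm2 and Apcs rested on these livers. Without the liver on caloric restriction alone the median was 0.39. On caloric restriction alone, with that liver included, the median r was 0.646, and on the control diet alone 0.541. The median Spearman rho over the 9 was 0.382 in all livers. It was 0.253 on caloric restriction alone and 0.405 on the control diet alone, so by rank the order of the diets turned.

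Outside the 10 genes, the patterns most like those of 3 members were found by Pearson r over the same 78 livers and 13366 genes, after the mean of each diet was removed, as a description with no test. The 2 livers left out in turn were those farthest from the median of the member concerned. Genes most like Saa1 were Psmb8 (r = 0.529, rho = 0.374, r without the 2 farthest livers 0.427), C9 (r = 0.517, rho = 0.575, 0.459 without them) and Ly6c2 (r = 0.516, rho = 0.409, 0.43 without them). Psmb8 encodes a subunit of the immunoproteasome and C9 a part of the complement membrane attack complex. For Lcn2 they were Cp (r = 0.691, rho = 0.667, 0.604 without them), Tes (r = 0.684, rho = 0.587, 0.616 without them) and Slc3a1 (r = 0.642, rho = 0.713, 0.649 without them). Cp encodes ceruloplasmin, itself an acute phase protein. For Orm2 they were Acot13 (r = 0.613, rho = 0.6255, 0.627 without them), Chil1 (r = 0.582, rho = 0.474, 0.454 without them) and Ildr2 (r = 0.58, rho = 0.612, 0.635 without them).

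Sequence before the RefSeq starts was read for the motifs named in the background. RefSeq windows of 250 bases before the start (GRCm38.p6) were present for 8 of the 10 genes, and for Orm1 and Hp there was no entry. RefSeq starts differ from the GENCODE positions above for some genes. The window of Lcn2 lies wholly inside the GENCODE gene, so its matches are inside the gene by that annotation, and the windows of Saa2, Saa3 and Hpx run into their GENCODE genes at the end. The C/EBP motif TTNNGCAA, searched on both strands, occurred in 7 of the 8, Saa1, Saa2, Saa3, Saa4, Lcn2, Orm2 and Hpx, and in 9.56% of all 32851 windows. An NF-kB motif, GGG and TTCC with 3 bases between, was in none of the 8 and in 4.65% of all windows, the STAT motif TTCNNNGAA in 1, Apcs, and in 7.02%, and the palindromic GR motif ACANNNTGT in 1, Lcn2, and in 5.84%. A match describes letters in a window and shows no bound site. The windows of Saa1 and Saa2 were 94.8% identical over their alignment, while those of Saa1 and Saa4 were 49.5% identical. Saa1, Saa2, Lcn2 and Orm2 are shown because they had the largest rises after corticosterone, in the direction of the gene, with the C/EBP match and, in Lcn2, the GR match in capitals. The windows lie at chr7:46742981-46743230 on the minus strand, chr7:46751583-46751832 on the plus strand, chr2:32387740-32387989 on the minus strand and chr4:63362199-63362448 on the plus strand.
Saa1: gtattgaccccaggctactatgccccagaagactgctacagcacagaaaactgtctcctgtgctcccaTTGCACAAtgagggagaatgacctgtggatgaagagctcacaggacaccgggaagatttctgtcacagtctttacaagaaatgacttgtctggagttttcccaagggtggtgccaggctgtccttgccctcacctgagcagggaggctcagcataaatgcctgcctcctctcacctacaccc
Saa2: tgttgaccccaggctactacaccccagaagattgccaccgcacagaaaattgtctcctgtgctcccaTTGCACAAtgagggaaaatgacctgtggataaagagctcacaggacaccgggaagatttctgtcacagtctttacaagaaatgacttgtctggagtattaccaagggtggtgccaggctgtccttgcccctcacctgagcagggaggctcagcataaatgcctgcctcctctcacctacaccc
Lcn2: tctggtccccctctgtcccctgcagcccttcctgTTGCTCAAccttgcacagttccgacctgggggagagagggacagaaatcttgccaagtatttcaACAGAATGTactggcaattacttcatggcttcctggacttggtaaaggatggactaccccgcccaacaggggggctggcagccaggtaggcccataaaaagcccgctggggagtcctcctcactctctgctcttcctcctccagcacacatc
Orm2: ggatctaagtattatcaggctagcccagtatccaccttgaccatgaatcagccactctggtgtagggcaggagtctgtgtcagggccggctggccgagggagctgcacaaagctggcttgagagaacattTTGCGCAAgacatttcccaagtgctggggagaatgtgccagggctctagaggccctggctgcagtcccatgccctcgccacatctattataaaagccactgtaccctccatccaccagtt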

How the data were processed

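Poly(A) RNA of whole liver was measured in 90 libraries. Per the labels, the authors processed reads with FastQC, MultiQC, Salmon and DESeq2 on build mm10, with no versions in the labels, and deposited 4 tables of Salmon estimated counts per Ensembl gene ID. Of 27654 IDs, 27244 matched a symbol. Estimated counts were rounded and fitted with edgeR 4.0.16 (limma 3.58.1, R 4.3.3): genes with at least 10 counts by filterByExpr, TMM scaling, quasi-likelihood F test, Benjamini-Hochberg adjustment over all genes tested, called under 0.05. TMM factors of each fit came from its own libraries, and those of the CPM from all libraries of an experiment. Groups came from the titles. Comparisons were fitted by time, and averages, genotype by time and genotype by diet in 1 fit per diet or of both. Rhythms used the JTK test with exact null distributions, a period of 24 hours and 6 time points. Its input was values after the variance-stabilizing transformation of DESeq2, over all genes with any count in the livers tested. Methods were tested on simulated data.

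Alternatives were DESeq2 1.42.0, its size factors, no count filter, a replicate block, other rhythm tests and each library left out. Omitting WT replicate 2 at ZT8 on caloric restriction and the 3 WT livers highest in Saa1 was chosen after seeing the data.

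The members and lists were chosen with earlier results of these data known. Named genes were the 10 members, up to 4 genes per list with the lowest adjusted p, and the 3 genes most like Saa1, Lcn2 and Orm2. Hamp2 in the corticosterone experiment, Serpina6, Hmox1 and the cell type markers were named after their values were seen. Left out was a deposited table with 6 columns of transformed values. Depth was 10057544 to 39492146 counts per library.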

Additional observations from a re-analysis of the deposited data

Results flagged for a closer look

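In groups of 4 livers on the control diet, a library was marked when its gap to the nearest of the others took up more of the range than Dixon's 95% limit allows. Of 66 sets of a gene and a group, over the members and Nr3c1, 7 were marked, and chance marks about 1 in 20. The sets are not independent, since Saa2, Saa3 and Lcn2 varied with Saa1 among single mice. WT replicate 4 at ZT12 was high in Saa1 (138 CPM) and Saa2 (14.1 CPM). WT replicate 4 at ZT20 was high in Saa2 (13.8 CPM), Saa3 (11.4 CPM) and Lcn2 (7.93 CPM). GRLKO replicate 2 at ZT12 was the highest of its group in Saa2 (1.64 CPM) and Saa3 (4.57 CPM). What set these livers apart was not tested. The groups of 3 on caloric restriction, including that of the WT liver with the highest Saa1, were not tested this way.

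The genotype difference depended on diet by a test of the difference itself for Saa4, with a log2 of 0.55, and for Apcs, with a log2 of -0.58. Library batch and diet coincide in the time series, so a batch effect on the genotype difference cannot be told apart from that of diet.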

How the results depend on the processing

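No alternative turned the direction of a call. With libraries left out, 1 at a time for the diet, corticosterone and pairs of a gene and a time and by replicate number for the rest, the number of genes called was 3 to 6 for diet, 5 to 10 for corticosterone, 4 to 6 and 3 to 5 for genotype on caloric restriction and on the control diet, 0 to 0 and 0 to 1 for genotype by time, and 2 to 2 for genotype by diet. Pairs of a gene and a time called were 5 to 8 of 60 on caloric restriction and 2 to 3 on the control diet. Rhythmic genes were 0 to 0 in WT and 0 to 2 in GRLKO livers on caloric restriction, 2 to 2 in WT and 0 to 1 in GRLKO livers on the control diet. DESeq2 gave 3 and 1 for genotype by time, and 17 and 6 pairs. Without WT replicate 2 at ZT8 on caloric restriction, chosen after seeing the data, genotype by time gave 1, genotype by diet 3 and the rhythm of WT livers 0. An F test of time called 5 WT and 7 GRLKO genes as varying on caloric restriction, with a replicate block 2 and 6, and sine and cosine terms 3 and 8; in GRLKO on the control diet the F test with replicate block called 1. The causes of these shifts were not tested. With a replicate block, diet gave 5 genes, corticosterone 7, genotype 6 and 5, genotype by diet 2, genotype by time 0 and 0, and pairs 4 and 0. The libraries share only a number: over 14 comparisons correlations between libraries of 1 number ran from -0.123 to 0.115, and in none were all over 0.1. Size factors of DESeq2 and no count filter kept all 38 calls of single genes each. Genes such as Saa2, Saa3 and Lcn2, at a few CPM on the control diet, are limited by depth.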
